A study of Homo sapiens with 24 samples.

Results

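TH, PCDH20 and LOC100134294 are 3 of the 34595 rows of a gene-level bead array table from the pancreatic cancer cell lines Panc1 (PANC-1) and Capan1 (Capan-1). They were selected on measured values: in Capan1, TH and PCDH20 were lower and LOC100134294 was higher with each IRAK hairpin than with the scramble hairpin. The choice therefore used the Capan1 hairpin and scramble arrays, and what these show is given as description without a test. A description of the set as genes lost in every Capan1 knockdown is borne out for part of it: LOC100134294 was higher with the hairpins, and TH and PCDH20 were not detected in Capan1 cells given DMSO either.

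TH is tyrosine hydroxylase, the rate-limiting enzyme of catecholamine synthesis, which turns tyrosine into L-DOPA with tetrahydrobiopterin as cofactor and is best known from dopaminergic neurons and the adrenal medulla. PCDH20 encodes a protocadherin, a transmembrane protein of the cadherin superfamily of adhesion molecules. LOC100134294 is a name of the array's annotation without an entry in the RefSeq gene table used here, and no function is given to it. IRAK1 and IRAK4 are kinases that pass signals from interleukin-1 and Toll-like receptors on towards NF-kB.

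Each line had 6 groups of 2 arrays, 24 arrays in 12 groups. Inhibitor cells received 10 uM of an IRAK1/4 inhibitor, which the labels do not name further, for 24 h, and DMSO cells received the vehicle. Cells labelled shIRAK1, shIRAK4 and scramble carried that hairpin from a puromycin-resistance retrovirus (selection at 1 ug/mL for 48 h) and a scramble hairpin from a second, geneticin-resistance retrovirus with GFP (500 ug/mL for 4 days). In shIRAK1+4 cells the second virus carried shIRAK4. All hairpin and scramble cells thus went through a pair of infections and selections that the labels do not mention for DMSO or inhibitor cells. The series description places the hairpins in PANC-1, but arrays so labelled exist for both lines. It is not stated whether a group's arrays are separate cultures. The p-values therefore reflect the spread between these arrays alone, and it may be technical.

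Between 10015 and 12090 of the 34595 rows were detected per array, meaning a deposited detection p under 0.01. Detection began at a log2 level of 5.53 to 5.72. Most rows were thus undetected on any one array, and counts of undetected list members are to be read beside that. The 12 epithelial and duct cell markers examined (keratins, EPCAM, CDH1 and others) were detected on all 12 Capan1 arrays, and 7 of them on all 12 Panc1 arrays. IRAK1, the first hairpin target, averaged a log2 level of 9.26 ± 0.41 in Capan1 shIRAK1 cells, 9.60 ± 0.06 in shIRAK4 cells and 8.85 ± 0.35 in shIRAK1+4 cells, against 10.45 ± 0.04 in scramble cells (SD, n = 2 each). In Capan1 the shIRAK1+4 difference passed the test (-1.60 ± 0.29, SE, limma, adjusted p = 0.00501), and without scramble replicate 1 it did not (-1.57, adjusted p = 0.0578). The shIRAK1 difference in Capan1 was -1.19 ± 0.29 (limma, adjusted p = 0.0541), and with median scaling between arrays the shIRAK1 and shIRAK4 differences passed (adjusted p = 0.0257 and 0.0387). In Panc1, IRAK1 averaged 8.95 ± 0.89 in shIRAK1 cells, 11.75 ± 0.31 in shIRAK4 cells and 8.50 ± 0.20 in shIRAK1+4 cells, against 11.42 ± 0.16 in scramble cells (SD, n = 2 each). IRAK4 was detected on 0 of 2 arrays in each of the Capan1 scramble, shIRAK4 and shIRAK1+4 groups and likewise in Panc1, so its row does not check the IRAK4 hairpin against scramble in either line. In Panc1 IRAK4 averaged 5.30 in shIRAK4 cells and 5.27 in shIRAK1+4 cells, where it was not detected, and was detected on 2 of 2 arrays in shIRAK1 cells at 5.96, inhibitor cells at 5.81 and DMSO cells at 6.18. One Capan1 array stood apart in its inferred background SD: scramble replicate 2 had 9.45 on the linear signal scale, where the other 23 arrays had 21.5 to 45.6.

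TH was present at clear levels in 2 of the 12 groups, Capan1 cells given the inhibitor and Capan1 scramble cells. Its log2 level was 8.49 and 8.03 in Capan1 inhibitor cells, against 5.25 and 5.21 in Capan1 DMSO cells. All 4 of these arrays separated by treatment, with both inhibitor arrays detected and both DMSO arrays not above background. TH met the detection condition for the inhibitor test through the inhibitor arrays alone. Tested over all 34595 rows instead, its adjusted p was 1.53e-09 (limma). With that condition TH rose by 3.03 ± 0.12 on the log2 scale with the inhibitor (SE, limma, adjusted p = 2.72e-10), which was at least 6.40-fold when DMSO is set at the detection limit. This was the 14th largest rise among 10871 rows tested, of which 16.5% were called higher and 15.8% lower. Of these calls 51.1% were higher, and 84.9% with median scaling between arrays. RNA was taken from whole cultures, so a change in the share of cells making a transcript and a change in transcript per cell cannot be told apart.

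In the Capan1 hairpin groups TH lay near background. Its log2 level was 5.37 and 5.50 in shIRAK1 cells, 5.35 and 5.33 in shIRAK4 cells and 5.42 and 5.51 in shIRAK1+4 cells, against 8.38 and 8.11 in scramble cells. Only the second shIRAK1+4 array counted as detected, at a level under its own array's limit of 5.59. The TH row combines several probes, for which the deposited detection p is less reliable. As a description, the difference was -2.81 ± 0.12 with shIRAK1 (at least 6.28-fold lower), -2.91 ± 0.12 with shIRAK4 (at least 6.43-fold lower) and -2.78 ± 0.12 with shIRAK1+4. In each of these contrasts TH had the second largest fall of the rows that met the detection condition (10696, 10974 and 10663). The shares of rows called lower were 0.757%, 3.96% and 3.36% for shIRAK1, shIRAK4 and shIRAK1+4, and those called higher 0.888%, 4.51% and 2.32%. The higher share of these calls was 54.0%, 53.2% and 40.8%, and with median scaling 15.4%, 21.2% and 2.54%. Without scramble replicate 2 the TH differences were -2.95, -3.04 and -2.92.

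Scramble and DMSO cells are both control groups, yet TH differed between them in Capan1. Capan1 scramble exceeded Capan1 DMSO by 3.01 ± 0.12 (description, at least 6.34-fold), in a contrast where 7.97% of all rows were called higher and 7.65% lower. Of those calls 51.0% were higher, and 95.9% with median scaling. Without scramble replicate 2 the scramble minus DMSO difference was 3.15 for TH, 2.57 for PCDH20 and -2.78 for LOC100134294. The TH scramble and inhibitor ranges overlapped, with group means of 8.24 and 8.26.

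**Figure D1:**
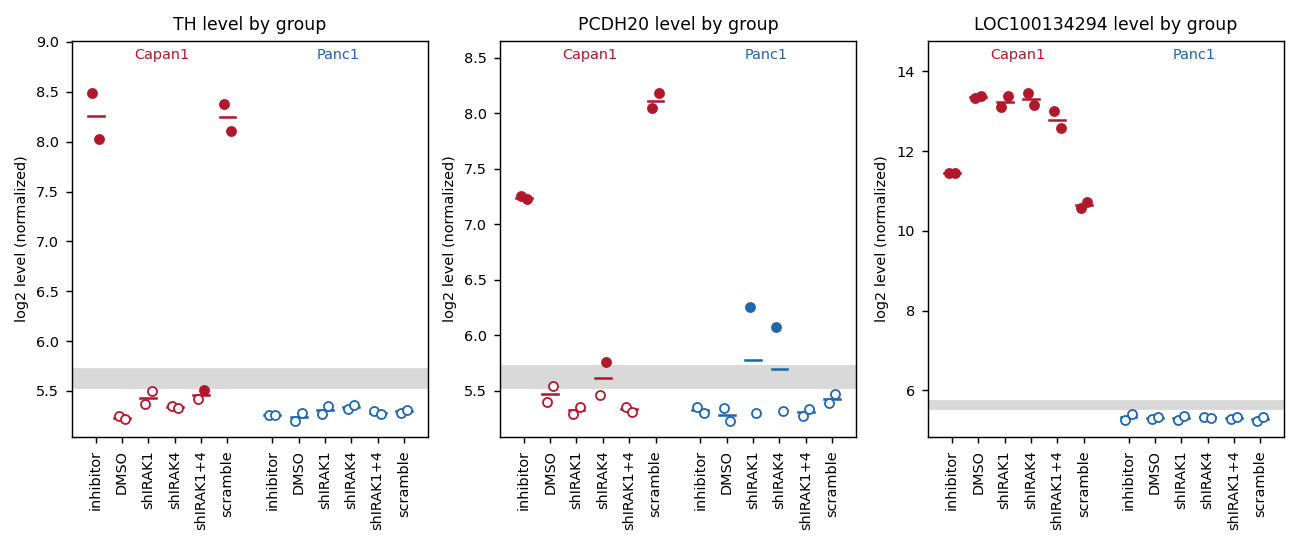
Normalized log2 level (vertical axis) of TH, PCDH20 and LOC100134294 on each of the 24 arrays by group, Capan1 in red and Panc1 in blue, with a bar at the group mean. Filled points are detected, open points are not, and the grey band spans the 24 detection limits (5.53 to 5.72); TH and PCDH20 stand high in Capan1 inhibitor and scramble cells, where LOC100134294 is lowest among Capan1 groups.

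PCDH20 had the same pair of high groups in the other order. Its log2 level was 7.25 and 7.23 in Capan1 inhibitor cells, against 5.40 and 5.54 in Capan1 DMSO cells. The 2 inhibitor arrays were detected and lay well apart from the 2 DMSO arrays, which were not. PCDH20 rose by 1.77 ± 0.24 with the inhibitor (SE, limma, adjusted p = 5e-05, at least 3.16-fold), the 85th largest rise of 10871. It too met the detection condition through the inhibitor arrays alone, and over all 34595 rows its adjusted p was 0.000239 (limma).

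With hairpins, PCDH20 in Capan1 was at 5.29 and 5.35 in shIRAK1 cells, 5.46 and 5.76 in shIRAK4 cells and 5.36 and 5.31 in shIRAK1+4 cells, against 8.05 and 8.18 in scramble cells. The second shIRAK4 array alone was detected among these 6 hairpin arrays. Described without a test, the differences were -2.79 ± 0.24 (at least 5.73-fold lower), -2.50 ± 0.24 and -2.78 ± 0.24 (at least 5.70-fold lower). These were the third largest fall in each contrast among the rows that met the detection condition. They were -2.72, -2.43 and -2.71 without scramble replicate 2. Scramble cells exceeded DMSO cells by 2.64 ± 0.24 and, unlike for TH, both scramble arrays lay above both inhibitor arrays.

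LOC100134294 ran opposite to TH and PCDH20 across the Capan1 groups and was among the brighter rows there, detected on 12 of 12 arrays. Its log2 level was 11.45 and 11.45 in Capan1 inhibitor cells, against 13.34 and 13.38 in Capan1 DMSO cells. The inhibitor arrays were both below the DMSO arrays. LOC100134294 fell by 1.91 ± 0.13 with the inhibitor (SE, limma, adjusted p = 6.57e-08), a level 3.75-fold lower and the 112th largest fall of 10871.

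In the Capan1 hairpin groups LOC100134294 was at 13.10 and 13.38 in shIRAK1 cells, 13.45 and 13.14 in shIRAK4 cells and 12.998 and 12.58 in shIRAK1+4 cells, against 10.58 and 10.72 in scramble cells. All 6 hairpin arrays lay above both scramble arrays. The described differences were 2.59 ± 0.13, 2.65 ± 0.13 and 2.14 ± 0.13, and 2.66, 2.72 and 2.21 without scramble replicate 2. Scramble was 2.71 below DMSO on the log2 scale (-2.71 ± 0.13). The DMSO, shIRAK4 and shIRAK1 groups, with means of 13.36, 13.30 and 13.24, did not differ beyond their spread. The order then ran through shIRAK1+4 at 12.79, inhibitor at 11.45 and scramble at 10.65, each step without overlap of the arrays.

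Panc1 cells gave little signal for any of the 3 rows. TH was detected on 0 of 12 Panc1 arrays (log2 level 5.20 to 5.36, median 5.28), against 5 of 12 Capan1 arrays. LOC100134294 was detected on 0 of 12 Panc1 arrays (5.23 to 5.41), against 12 of 12 Capan1 arrays (10.58 to 13.45). In DMSO cells LOC100134294 fell to a mean of 5.31 in Panc1, against 13.36 in Capan1 (-8.05 ± 0.13, limma, adjusted p = 1.11e-16, at least 211.7-fold lower), in a contrast where 26.8% of rows were called lower in Panc1. Neither TH nor PCDH20 was detected in the DMSO cells of either line, so no difference between the lines was tested for them.

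PCDH20 had 2 detected arrays in Panc1, replicate 1 of shIRAK1 and replicate 1 of shIRAK4. The Panc1 levels were 6.25 and 5.30 in shIRAK1 cells, 6.08 and 5.32 in shIRAK4 cells and 5.27 and 5.34 in shIRAK1+4 cells, against 5.39 and 5.47 in scramble cells. The arrays of one group thus differed by more than the groups did. No Panc1 contrast met the condition for a test, detection on both arrays of at least 1 group. Tested over all 34595 rows instead, the shIRAK1 difference was 0.35 ± 0.24 (SE, limma, adjusted p = 0.672) and the shIRAK4 difference 0.27 ± 0.24 (adjusted p = 0.753).

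The inhibitor contrast was the one available in both lines without hairpins. In Panc1 the inhibitor minus DMSO difference was 0.02 ± 0.12 for TH, 0.04 ± 0.24 for PCDH20 and 0.02 ± 0.13 for LOC100134294, all between arrays that were not detected. The test of the difference between the lines, Panc1 effect minus Capan1 effect, gave -3.01 ± 0.17 for TH (limma, adjusted p = 6.57e-08), -1.73 ± 0.34 for PCDH20 (adjusted p = 0.00296) and 1.93 ± 0.19 for LOC100134294 (adjusted p = 1.24e-05). Across all rows 8.12% were called in the negative and 7.9% in the positive direction. TH and PCDH20 entered this test through the Capan1 inhibitor arrays alone. Over all 34595 rows their adjusted p-values were 2.35e-07 and 0.0089 (limma). Panc1 was at background in both groups, where a fall of LOC100134294 could not have been measured, so no difference in effect between the lines is read for that row. Of the calls on this term 49.3% were positive, and 37.8% with median scaling.

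**Figure D2:**
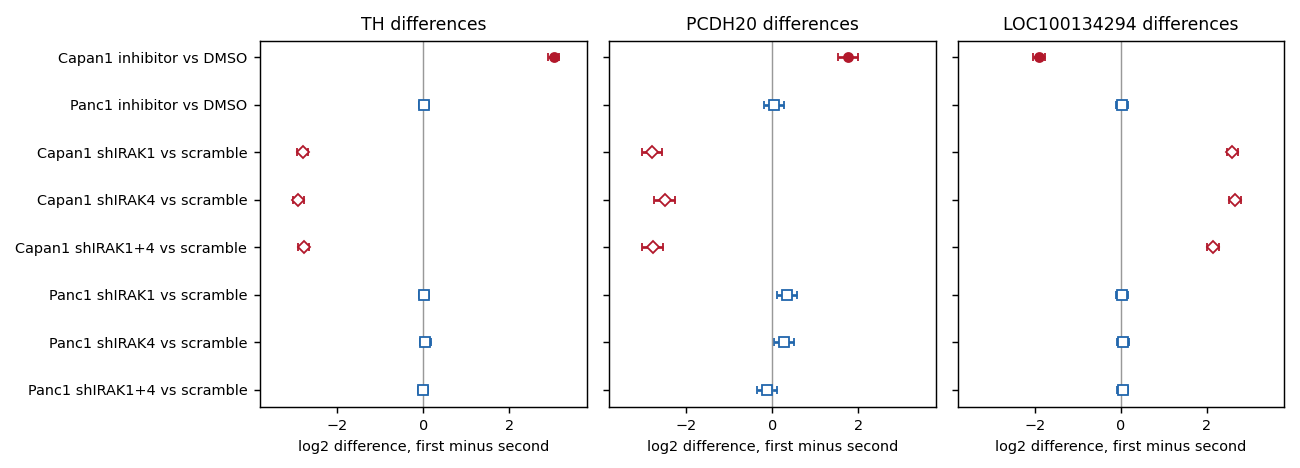
Log2 difference ± SE (horizontal axis, first group minus second) for TH, PCDH20 and LOC100134294 in 8 contrasts, Capan1 in red and Panc1 in blue. Filled circles were tested with limma, diamonds are the contrasts used in choosing the genes and squares are rows below detection; the inhibitor and hairpin differences of each gene lie on opposite sides of 0 in Capan1, while Panc1 stays near 0.

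The size of the TH and PCDH20 differences depended on how background was estimated. When the background was inferred from all rows, the inhibitor rise became 0.53 for TH and 0.21 for PCDH20, against 4.39 for TH in the authors' normalized table. The folds given as at least a value hold for the main processing only and are not minima over these alternatives. Over 12 alternatives for each gene, all differences of the Capan1 inhibitor contrast kept their sign and stayed past the threshold.

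Of 9 further genes of catecholamine synthesis, storage, transport and breakdown that are reported here, 3 were tested for the inhibitor in Capan1 and 3 fell (median -1.09, against 0.0037 for all rows tested, of which 15.8% were called lower). DDC, which turns L-DOPA into dopamine, fell by 1.09 ± 0.38 to below detection (at least 1.66-fold, limma, adjusted p = 0.0385). MAOB, a monoamine-degrading oxidase, fell by 1.96 ± 0.09 (at least 3.51-fold, adjusted p = 2.25e-09), and MAOA, its paralog, fell by 0.80 ± 0.15 (adjusted p = 0.000701). MAOB met the detection condition through the DMSO arrays alone, and over all 34595 rows its adjusted p was 1.53e-09 (limma). DDC averaged 6.37 in DMSO, 5.23 in scramble and 5.20, 6.09 and 5.80 in shIRAK1, shIRAK4 and shIRAK1+4 cells. In that order MAOB averaged 7.45, 5.33, 5.43, 5.48 and 5.84, and MAOA 9.16, 9.13, 9.02, 9.21 and 8.24. MAOB was thus low in all Capan1 groups but DMSO, unlike the pattern of TH. The remaining 6, DBH, PNMT, the vesicular carriers SLC18A1 and SLC18A2 and the reuptake carriers SLC6A2 and SLC6A3, were detected on none of the 12 Capan1 arrays. Per Capan1 array 10359 to 12090 of the 34595 rows were detected, so most rows went undetected there too.

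Of 8 genes that make or recycle tetrahydrobiopterin, 7 were tested, of which 2 rose and 1 fell (median 0.03), beside 16.5% and 15.8% of all rows. GCH1, the first enzyme of that route, fell by 1.09 ± 0.14 (limma, adjusted p = 2.55e-05). GCHFR, the regulator that inhibits GCH1, rose by 0.70 ± 0.24 (at least 1.60-fold, adjusted p = 0.0382), and SPR, which completes the route, rose by 0.36 ± 0.12 (adjusted p = 0.0321). The DDC, GCHFR and SPR calls were lost whichever 1 of the 4 arrays was omitted, with adjusted p-values from 0.0515 to 0.239. Without the detection filter these calls were lost as well (limma, adjusted p = 0.118, 0.108 and 0.0527).

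**Figure D3:**
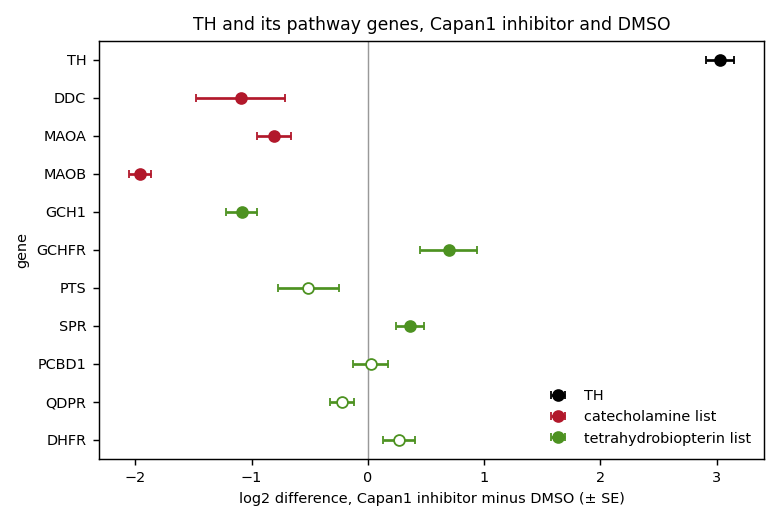
Log2 difference ± SE between Capan1 inhibitor and DMSO cells (2 arrays each) for TH and the tested genes reported here of the catecholamine and tetrahydrobiopterin lists. Filled points passed the limma threshold and open points did not; TH at 3.03 stands to the right of all, and MAOB at -1.96 is at the other end.

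Transcription factors known to act on the TH promoter moved in both directions with the inhibitor in Capan1. Of 16 reported here, 9 were tested, 2 rose and 3 fell (median 0.0049), again beside 16.5% and 15.8% of all rows. GATA3 rose by 2.59 ± 0.22 (limma, adjusted p = 4.11e-07) and GATA2 by 0.57 ± 0.18 (at least 1.31-fold, adjusted p = 0.0212). JUN, a subunit of AP-1, fell by 2.90 ± 0.27 (adjusted p = 1.19e-06), EGR1 fell by 1.05 ± 0.37 (adjusted p = 0.0419) and NR4A2 (Nurr1) fell by 0.37 ± 0.09 (adjusted p = 0.00576). The GATA2 and EGR1 calls did not survive leaving out any 1 of the 4 arrays (adjusted p 0.0525 to 0.158), nor NR4A2 leaving out inhibitor replicate 1 (adjusted p = 0.0592). Without the detection filter the GATA2 and EGR1 calls were also lost (limma, adjusted p = 0.0534 and 0.127). In Capan1, GATA3 averaged 8.42 in inhibitor, 5.83 in DMSO and 6.56 in scramble cells. It averaged 6.32, 6.45 and 6.37 in shIRAK1, shIRAK4 and shIRAK1+4 cells. For GATA3 the scramble cells thus lay near the hairpin groups, unlike for TH. GATA2 averaged 5.97 in inhibitor, 5.399 in DMSO and 6.02 in scramble cells, and 5.495, 5.71 and 5.67 in those hairpin groups. A part of these factors in the TH results was not tested.

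Pathway genes around TH were also measured in Panc1, where TH itself was not detected. The 9 further catecholamine genes reported here were detected on no Panc1 array, where 10015 to 11123 of the 34595 rows were detected per array. Of the tetrahydrobiopterin genes, SPR rose by 0.49 ± 0.12 with shIRAK1 against scramble cells (limma, adjusted p = 0.017), where 5.58% of rows were called higher, but the call was lost without scramble replicate 1 (0.129), scramble replicate 2 (0.056) or shIRAK1 replicate 2 (0.152). GCHFR rose by 0.84 ± 0.24 with shIRAK1+4 (adjusted p = 0.0284), where 8.22% of rows were called higher, and each of the 4 arrays was needed for the call (adjusted p 0.0749 to 0.175 without one). For both genes the Panc1 scramble mean was under the DMSO mean. SPR averaged 8.64 in scramble and 9.13 in shIRAK1 cells, both below 9.51 in DMSO cells. GCHFR averaged 7.77 in scramble, 8.62 in shIRAK1+4 and 8.27 in DMSO cells. EGR1, an immediate-early transcription factor, averaged 6.80 in shIRAK1 cells, 7.26 in shIRAK4 cells and 6.95 in shIRAK1+4 cells, against 10.31 in scramble cells. EGR1 averaged 7.73 in inhibitor cells, against 6.16 in DMSO cells. For EGR1 the scramble cells thus stood above every other Panc1 group, DMSO included. EGR1 fell by 3.51 ± 0.37 with shIRAK1, by 3.05 ± 0.37 with shIRAK4 and by 3.36 ± 0.37 with shIRAK1+4 against the same scramble arrays (adjusted p = 2.34e-05, 7.45e-05 and 3.18e-05), with 5.04%, 6.21% and 6.62% of rows called lower. With the inhibitor in Panc1 EGR1 rose by 1.57 ± 0.37 (adjusted p = 0.0196, 3.73% of rows called higher), and each of the 4 arrays was needed for that call (adjusted p 0.0892 to 0.144 without one).

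Among 13 other non-clustered protocadherins, 12 were detected on no Capan1 array and none was tested there for the inhibitor. On any one Capan1 array 10359 to 12090 of the 34595 rows were detected. Of 12 Wnt and beta-catenin target genes, examined because PCDH20 has been described as a Wnt antagonist in other tumours, 6 were tested, 1 rose and 2 fell (median -0.22), with the same 16.5% and 15.8% over all rows. APCDD1 rose by 0.95 ± 0.24 (limma, adjusted p = 0.00671), CCND1 (cyclin D1) fell by 1.22 ± 0.26 (adjusted p = 0.00235) and AXIN2 fell by 1.00 ± 0.31 (adjusted p = 0.0221). Each of the 4 arrays was needed for the AXIN2 call (adjusted p 0.0556 to 0.129 without one). DKK1, a row of several probes, did not meet the detection condition and is left out of these counts and the median. It averaged 5.49 in Capan1 inhibitor cells, against 9.89 in DMSO cells. In scramble cells it averaged 7.43, and in shIRAK1, shIRAK4 and shIRAK1+4 cells 8.29, 5.90 and 7.93.

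Markers of cells that make TH elsewhere were mostly below detection in Capan1, as were most rows of the array. Only 10359 to 12090 of the 34595 rows were detected per Capan1 array, so the undetected counts below are no trait of these lists. Of 13 neuroendocrine and neuron markers reported here, 9 (among them CHGB, SYP, INSM1 and STMN2) were detected on no Capan1 array. ENO2 rose by 1.30 ± 0.27 with the inhibitor (limma, adjusted p = 0.0018) and TUBB3 fell by 0.99 ± 0.20 (adjusted p = 0.00158). The summed linear level of these markers was 1096 to 1136 in inhibitor cells and 1133 to 1199 in scramble cells, against 1543.5 to 1544.5 in DMSO cells. It was 1396 to 1498 in shIRAK1 cells, 990.1 to 1378 in shIRAK4 cells and 2029 to 2158.5 in shIRAK1+4 cells, an order unlike that of TH. The largest part of this sum was TUBB3, which averaged 9.04 in inhibitor, 9.32 in scramble, 10.02 in DMSO and 10.61 in shIRAK1+4 cells. Sums of these marker lists also count undetected rows and the offset, so this one says little of the list as a whole. Among 9 immune markers reported here PTPRC, CD3E and CSF1R were detected on no Capan1 array, and the sum was 689.3 to 732.3 in inhibitor cells, against 1799.7 to 1844 in DMSO cells. It was 519.3 to 1048 in the hairpin groups, against 585.2 to 604 in scramble cells. Of that list only CD68 and LYZ were detected on all 12 Capan1 arrays, and the sum rests largely on them. LYZ (lysozyme), a gene of that list, fell by 3.32 ± 0.33 (limma, adjusted p = 3.17e-06). Of 10 fibroblast and stellate cell markers 8, and of 8 endothelial markers 5, were detected on no Capan1 array by their detection p.

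One of those fibroblast markers, LUM (lumican, a matrix proteoglycan), had the pattern of TH and PCDH20 in level and is named here after its values were seen. LUM was at 6.12 and 6.16 in Capan1 inhibitor cells, against 5.22 and 5.26 in DMSO cells. It was at 5.31 and 5.34 in shIRAK1 cells, 5.32 and 5.30 in shIRAK4 cells and 5.36 and 5.26 in shIRAK1+4 cells, against 7.34 and 7.16 in scramble cells. Like TH, LUM is a row of several probes, and its inhibitor and scramble levels lay above the detection limits of those arrays although its detection p did not pass, which also kept it out of the ranking by likeness. In a fit of all 34595 rows, LUM rose by 0.90 ± 0.05 with the inhibitor (SE). This is a description without a test, since LUM was picked on these same arrays. The other 7 of the 8 fibroblast markers stayed undetected, DCN, PDGFRA and PDGFRB among them, and the summed list was 625.8 to 679.1 in inhibitor cells, 596.2 to 640.5 in scramble cells and 578.4 to 604.2 in DMSO cells. In the hairpin groups that sum was 565.7 to 889.1. Only ACTA2 of that list was detected on all 12 Capan1 arrays, and it makes up a large part of the sum.

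PECAM1 (CD31) was the tested endothelial marker and averaged 5.998 in Capan1 inhibitor cells, against 5.36 in DMSO cells. It met the detection condition through the inhibitor arrays alone, and over all 34595 rows its adjusted p was 0.0126 (limma). It rose by 0.64 ± 0.16 (at least 1.34-fold, limma, adjusted p = 0.00537), a call lost without DMSO replicate 1 (adjusted p = 0.0503) or inhibitor replicate 2 (adjusted p = 0.0649). Unlike TH, it averaged 5.91, 5.74 and 5.63 in shIRAK1, shIRAK4 and shIRAK1+4 cells, against 5.87 in scramble cells. The endothelial sum was 339.8 to 354.7 in inhibitor cells and 326.1 to 359.7 in the hairpin groups, 341.7 to 347.8 in scramble cells and 316.9 to 320.8 in DMSO cells. Of the 12 epithelial markers, all tested, 1 rose and 3 fell with the inhibitor (median -0.23), beside 16.5% and 15.8% of all rows tested. ELF3 rose by 1.42 ± 0.19 (limma, adjusted p = 5.45e-05), while SOX9 fell by 1.72 ± 0.32 (adjusted p = 0.000802). KRT8 fell by 0.94 ± 0.14 (adjusted p = 0.000145) and KRT19 fell by 0.55 ± 0.18 (adjusted p = 0.0323). The KRT19 call was lost without any 1 of the 4 arrays (adjusted p 0.0869 to 0.156). IRAK3, an IRAK family member that restrains the pathway, fell by 0.61 ± 0.16 (adjusted p = 0.00737), a call lost without DMSO replicate 1 or inhibitor replicate 1 (adjusted p = 0.0646 and 0.0551). The part of all these markers in the TH and PCDH20 results was not tested. With median scaling between arrays the calls of MAOA, GCH1, NR4A2, CCND1, TUBB3, IRAK3, KRT8 and KRT19 were also lost (limma, adjusted p 0.0675 to 0.986). With background from all rows JUN and ENO2 missed the threshold (adjusted p = 0.0515 and 0.0849).

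The genes most like each of the 3 rows were ranked by Pearson's r of the log2 level over the 24 arrays, among the other 13360 rows detected on both arrays of some group. This r is a description: the points share arrays, and in Capan1 it rests on 4 inhibitor and scramble arrays against 8 others. TH was closest to C4ORF31 (now NDNF, a secreted neurotrophic factor; r = 0.966), GAS1 (a growth arrest protein; 0.959), PCDH20 (0.932), CALHM3 (a calcium homeostasis modulator; 0.900) and FAM26A (0.892), whose name is an older symbol of CALHM3. Within Capan1, C4ORF31, PCDH20 and AP2M1 came first. In that line TH and PCDH20 had r = 0.957 with each other, and TH had r = -0.955 and PCDH20 r = -0.964 with LOC100134294.

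These rows were ranked on arrays that include the Capan1 inhibitor and DMSO arrays. A matching inhibitor difference was thus favoured by the choice, and the p-values given for such rows are no separate support. With the inhibitor in Capan1, CALHM3 rose by 2.55 ± 0.18 (limma, adjusted p = 6.57e-08), GAS1 by 1.44 ± 0.13 (at least 2.36-fold, adjusted p = 7.67e-07) and C4ORF31 by 0.94 ± 0.08 (at least 1.57-fold, adjusted p = 7.93e-07). CALHM3 was not at background with hairpins, unlike TH: it averaged 6.34 in shIRAK1 cells, 6.003 in shIRAK4 cells and 6.13 in shIRAK1+4 cells, against 7.31 in scramble cells. PCDH20 was closest to TH, C4ORF31, BDNF (brain-derived neurotrophic factor; r = 0.862), GAS1 and LOC643008, and within Capan1 to TH, KLHL30 and ZSCAN5A. BDNF rose by 0.39 ± 0.08 with the inhibitor (at least 1.13-fold, adjusted p = 0.00243, and 0.0696 with median scaling).

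LOC100134294 was closest to PRSS2 (anionic trypsinogen; r = 0.999), LOC653061, PTPN20 (a tyrosine phosphatase), CXCL5 (a neutrophil-attracting chemokine) and LOC651524, in an r that mostly sets Panc1 against Capan1. Within Capan1 the closest were PRSS2 (0.992), PRSS3 (mesotrypsinogen; 0.968) and NFIX (0.923). The inhibitor differences of all these rows were likewise favoured by the choice, so their p-values are no separate support. PRSS2 averaged 10.79 in inhibitor cells, against 12.91 in DMSO cells, and fell by 2.11 ± 0.21 (limma, adjusted p = 2.75e-06). It averaged 12.58 in shIRAK1 cells, 12.92 in shIRAK4 cells and 12.40 in shIRAK1+4 cells, against 10.12 in scramble cells. PRSS3 fell by 1.60 ± 0.40 (adjusted p = 0.00663, and 0.0645 with median scaling) and CXCL5 by 2.80 ± 0.21 with the inhibitor (adjusted p = 1.28e-07). Probe sequences were not used here, so whether LOC100134294 and PRSS2 probes share a target cannot be told.

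**Figure D4:**
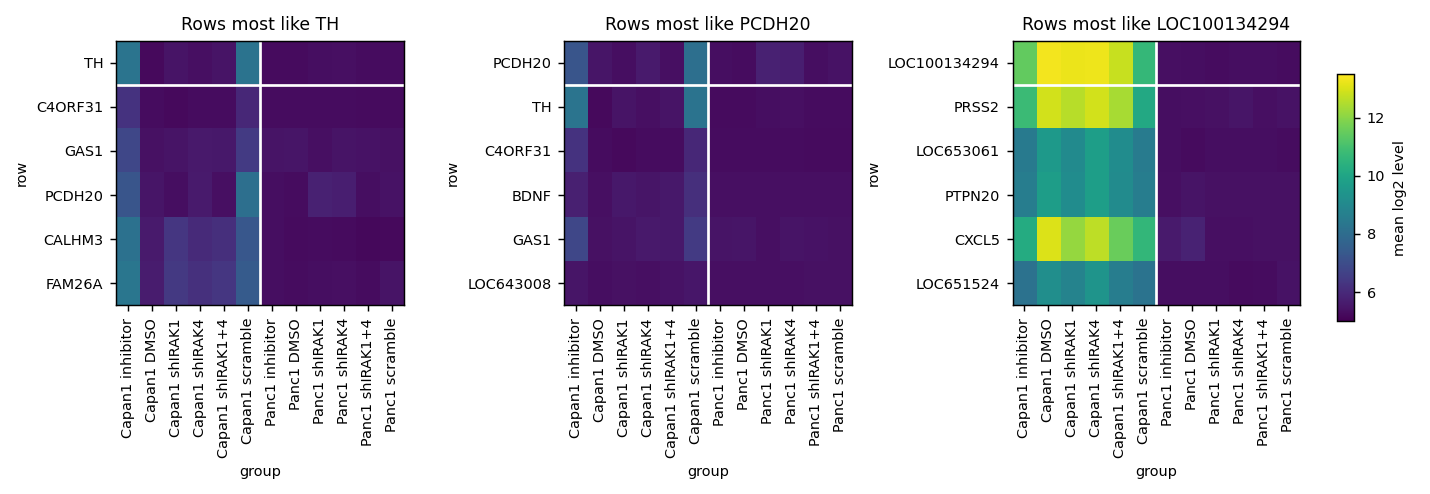
Mean log2 level (colour scale) in the 12 groups for each of the 3 rows, above the white line, and the 5 rows with the highest Pearson's r over 24 arrays, below it. The TH and PCDH20 panels are bright in Capan1 inhibitor and scramble cells, and the LOC100134294 panel is bright in all Capan1 groups and darkest there in those same groups.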

How the data were processed

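The authors deposited gene-level log2 signal intensities, non-normalized per the file headers, and beside each a detection p-value that the authors' software set against negative controls (GenomeStudio 2011, per the submitters' processing notes). How probes were combined per gene is not given in the sources used here. A second deposited table of log2 values, whose columns have medians of 4.95 to 4.97, was an alternative only. The design had assumed linear probe values.

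Signals were made linear, background-corrected by normexp (background mean and SD inferred from the detection p of 27191 rows behaving as 1 probe), offset by 16, quantile normalized and logged, with R 4.3.3 and limma 3.58.1. One model of 12 group means (12 residual and 3.80 prior degrees of freedom) was fitted to the 13361 rows with detection p under 0.01 on both arrays of a group. Benjamini-Hochberg adjustment ran within each comparison over rows detected in a compared group (threshold 0.05). Fold bounds use each array's detection limit and the group means of the main processing, without sampling error. The steps were tested on simulated data.

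The 3 rows and the 11 gene lists were chosen with earlier results of these data known. Some genes of these lists are not reported here, and the counts, medians and sums of the lists leave them out. Further named genes are IRAK1, IRAK4, list members past the threshold (at most 4 each way; here for the Capan1 inhibitor contrast and, in Panc1, for the 3 lists around TH, with other list calls left out) and the rows most like each of the 3. Alternatives were the background estimate, offset, scaling, source table, filter, replicate block, each line alone and leaving out each array. A robust background estimate was added after seeing the data. The number of arrays limits the precision.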

Additional observations from a re-analysis of the deposited data

Results flagged for a closer look

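The effect of the inhibitor differed between the lines for TH and PCDH20 by the interaction term of the limma model, Panc1 effect minus Capan1 effect. It was -3.01 for TH and -1.73 for PCDH20 on the log2 scale. In Panc1 the arrays of both treatments were below detection for each row, so the term rests on the change in Capan1. For LOC100134294 the term was 1.93, but a fall from background could not have been measured in Panc1, so it restates the Capan1 fall and no difference in effect is read from it.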

How the results depend on the processing

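Of 92 alternatives for the 7 tested results of the 3 rows, 90 stayed past the threshold, and all 144 alternatives of the 12 described results kept their sign. The PCDH20 difference between lines was -1.98 in the authors' normalized table (limma, adjusted p = 0.0785) and the LOC100134294 one 1.45 with median scaling (adjusted p = 0.0528), where the cause was not tested. Described differences against scramble moved beyond the replicate spread as follows, in the order shIRAK1, shIRAK4, shIRAK1+4 and then scramble against DMSO. With background from all rows TH was -0.49, -0.50, -0.49 and 0.52, PCDH20 -0.45, -0.42, -0.45 and 0.44, and LOC100134294 2.99, 3.05, 2.51 and -3.12. With the robust background, chosen after seeing the data, TH was -3.53, -3.78, -3.45 and 3.97, and PCDH20 -3.68, -2.96, -3.66 and 3.30. With offset 50 TH was -2.13, -2.18, -2.11 and 2.24, and PCDH20 -2.07, -1.90, -2.06 and 1.99. With median scaling TH was -3.33, -3.45, -3.30 and 3.52, PCDH20 -3.33, -3.02, -3.31 and 3.18, and LOC100134294 2.14, 2.24, 1.72 and -1.99. In the authors' table TH was -3.33, -3.67, -3.21 and 4.37, and PCDH20 -3.63, -2.73, -3.56 and 3.06. Leaving out any 1 array left the TH inhibitor rise at 2.80 to 3.26, the PCDH20 rise at 1.69 to 1.84 and the LOC100134294 fall at -1.93 to -1.89.

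Replicate numbers are shared between groups without a label for a common batch, and deviations of same-numbered arrays correlated at -0.03 to 0.23. By the array numbers in the sample titles, the Capan1 inhibitor arrays come after all others. Whether they were run apart is not stated, and a part of this in the inhibitor contrast was not tested. With the replicate number as a block the calls of the 3 rows did not change (TH inhibitor adjusted p = 1.4e-09, PCDH20 6.93e-05, LOC100134294 1.95e-07), and the rows called for the inhibitor in Capan1 numbered 3681 against 3519.

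Median scaling moved the median of all rows to 0.35 in Capan1 inhibitor against DMSO and to 0.58 in scramble against DMSO. Among calls for the Capan1 inhibitor it made 84.9% higher, against 51.1%, and called 1977 rows, against 3519. In Panc1 it made 91.9% of inhibitor calls higher, against 55.3%, and 72.4%, 81.6% and 68.3% of shIRAK1, shIRAK4 and shIRAK1+4 calls, against 52.5%, 53.3% and 55.4%. In the authors' table the higher share was 65.5% for the Panc1 inhibitor and 64.6% for Capan1 shIRAK1, against 55.3% and 54.0%. Called rows ranged over 37 to 882 (Panc1 inhibitor, 707), 286 to 2047 (difference between lines, 1949), 3472 to 6886 (Panc1 against Capan1, 6465), 50 to 217 (Capan1 shIRAK1, 176), 340 to 1010 (Capan1 shIRAK4, 930), 133 to 1495 (Capan1 shIRAK1+4, 605) and 807 to 3749 (Capan1 scramble against DMSO, 1701). Of 468 alternatives for 39 results of other named genes, 367 stayed on their side of the threshold, 96 lost the call, 5 gained one and 0 changed sign. TH and PCDH20 lie at the detection limit in most groups, so signal over background limits their fold sizes.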
